A study of Oryza sativa with 2 samples.

Results

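Expansins are small secreted proteins that loosen the plant cell wall at acidic pH without cutting its polymers, and so allow growing cells to extend. The alpha family (EXPA) acts on the contacts between cellulose and xyloglucan, and the beta family (EXPB), enlarged in grasses, is best known for its action on the arabinoxylan-rich grass wall. The expansin-like family A (EXLA) has the same domain layout, and its activity on walls is not established. In rice, several members are known from the rapidly elongating internodes of deepwater plants, where gibberellin and submergence raise their transcripts.

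The expansins were taken as the genes of the rice reference with the symbol or synonym EXPA, EXPB, EXLA or EXLB followed by a number. This gave 49 genes, of which 29 had at least 1 of the 33 probe sets tied to a single expansin, out of 17905 genes with such a probe set. The 29 comprised 14 of 29 alpha expansins, 11 of 15 beta expansins and all 4 EXLA genes. The 1 EXLB gene and the remaining 19 members, among them EXPA17 and EXPB5, had none and were not analysed here.

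Leaf RNA of the indica rice cultivar 9311 was measured on 1 array for nontransgenic seedlings and 1 for seedlings carrying an OsEATB transgene, OsEATB being a transcription factor gene of the ERF family. Each array stood for the leaves of 10 plants at the 4-leaf stage, grown at 28 °C with 14 h of light and 10 h of darkness in diluted Murashige and Skoog medium. The labels give normal conditions for the seedlings of both arrays. Neither the promoter of the transgene nor the number of transformed lines is stated in the labels. With 1 array a group there was no test, SD or p-value, and every difference below compares these arrays only.

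Signals are log2 MAS5 values, and a ratio is the transgenic minus the nontransgenic log2 signal. The 40th percentile of each array served as a floor for dimmer signals (4.41 nontransgenic, 4.61 transgenic). Where 1 side of a ratio sat at the floor, the change is a lower bound at that floor, and another floor moves it. A gene was read as measured where a probe set reached the median of its array (5.16 and 5.32) on at least 1 array. Signals of different probe sets do not rank transcripts by abundance. Levels are also given as percentiles of the array, which rank probe sets by the same signals and have the same limit. Most leaf markers stood near the top of both arrays, with rca, the Rubisco activase gene, at 15.86 in nontransgenic and 16.26 in transgenic leaves. RBCS1, from the same marker list, stood at 2.09 and 3.54, under the floor on both arrays. In whole leaves, fewer cells of a type and less RNA per cell cannot be told apart.

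Most expansins gave dim signals in these leaves. Of the 29 genes with a probe set, 20 passed the level filter, 8 alpha, 8 beta and 4 EXLA genes, and the other 9 lay under the floor on both arrays. The 20 genes had median signals of 6.12 in nontransgenic and 6.36 in transgenic leaves, against 9.74 and 9.68 for all 15192 genes that passed. With these genes ranked by mean signal in 4 equal groups, 15 of the 20 expansins fell in the dimmest, 2 in the next, 1 in the third and 2 in the brightest.

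**Figure D1:**
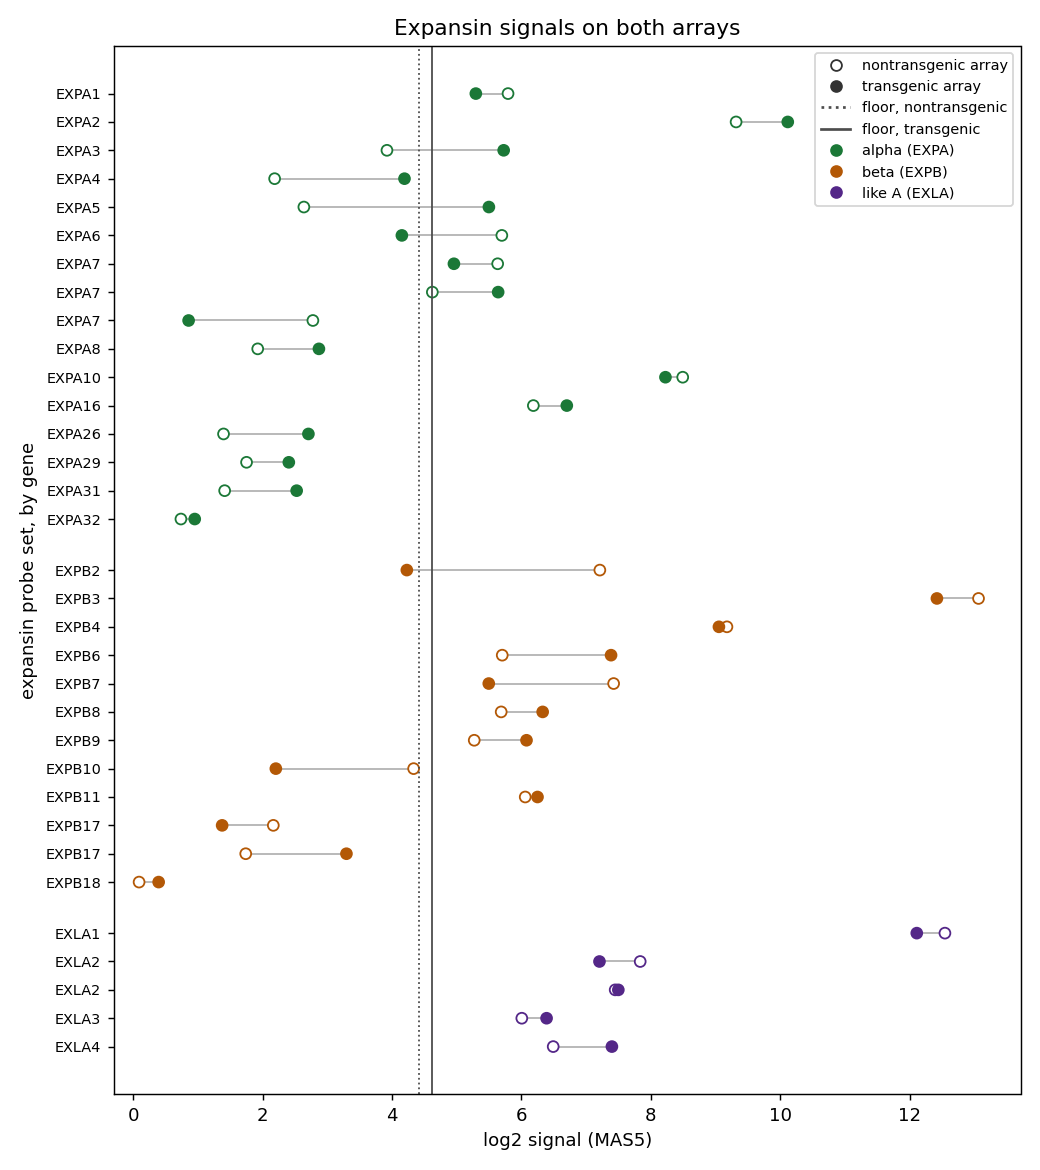
Log2 signal (x axis) of each expansin probe set, named by its gene (y axis), on the nontransgenic array (open circles) and the transgenic array (filled circles), with 1 array per group and no error. Vertical lines mark the floors at 4.41 and 4.61. EXPB3 and EXLA1 lie far to the right of the other members, and 9 genes lie left of both lines.

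The transgenic and nontransgenic leaves differed by at least 2-fold in 6 of the 20 expansins, 3 higher and 3 lower. Ratios of EXPA3, EXPA5, EXPA6 and EXPB2 are lower bounds on the change, so the size of the 6 ratios gives no order among them. The 3 higher members were EXPB6, EXPA3 and EXPA5, and the 3 lower ones were EXPB2, EXPB7 and EXPA6. Among all genes that passed, the shares past this threshold were 6.07% for higher and 4.44% for lower signal, against 15.0% of the expansins in each direction. All 6 lay in the dimmest of the 4 groups of genes, which held 15 expansins and where 28.8% of all genes differed by 2-fold or more. Of the 5 expansins in the brighter groups 0 did so, where the shares of all genes were 8.40%, 3.29% and 1.50%.

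Of the 20 genes, 14 reached the median on both arrays, 4 on the nontransgenic array alone and 2 on the transgenic array alone. Those 2, EXPA3 and EXPA5, passed only through the array on which they were higher, and EXPB2 and EXPA6 only through the array on which they were higher, so their counts are a description and not support for a shift of the family.

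**Figure D2:**
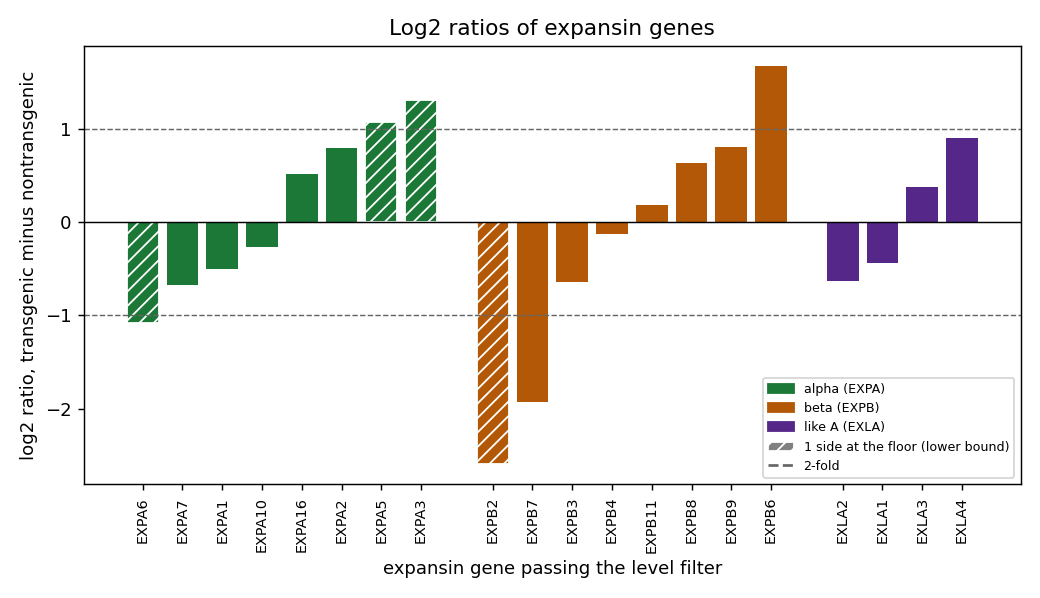
Log2 ratio, transgenic minus nontransgenic (y axis), of the 20 expansin genes that passed the level filter (x axis), sorted within each family; hatched bars are lower bounds and dashed lines mark 2-fold. The bars run both ways in every family, from -2.60 for EXPB2 to 1.68 for EXPB6 with dim signals at the floor, with 10 above and 10 below 0.

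Among beta expansins, EXPB3 gave the strongest signal. EXPB3, one of the genes known from deepwater rice internodes, stood at 13.06 in nontransgenic and 12.42 in transgenic leaves, the 98.1 and 96.6 percentiles of all probe sets. Its signal was 1.56-fold lower in the transgenic leaves, under the 2-fold threshold. EXPB4, known from the same internodes, stood at 9.18 and 9.05 and differed by 1.09-fold. Its probe set is of the kind that may read several similar genes.

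The 3 beta expansins with 2-fold ratios were of low or middling signal. EXPB2, which has been tied to root system architecture in rice, stood at 7.21 on the nontransgenic array and at 4.23, under the floor, on the transgenic array. At that floor, its signal in transgenic leaves was lower by at least 6.06-fold. The signal went from the 68.1 to the 35.5 percentile. The bound depends on the floor. The log2 ratio of EXPB2 was -1.90 with the floor raised to the median and -1.83 with a pseudocount of 32. EXPB7 stood at 7.42 and 5.49, both above the floor, and was 3.81-fold lower. EXPB6, another internode gene that responds to gibberellin, went the other way, from 5.70 to 7.38, and was 3.21-fold higher. With the floor, these 3 genes were the expansins that remained at a threshold of 3-fold, 1 higher and 2 lower. Among all genes 2.11% were higher and 1.21% lower by 3-fold. The 3 lay in the dimmest group of genes, where 28.8% differed by 2-fold or more. The share past 3-fold in that group was not computed. As deposited, without the floor, the alpha expansins EXPA3 and EXPA5 were also past 3-fold, at 3.49-fold and 7.26-fold higher.

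The other beta expansins differed by less than 2-fold. EXPB9 stood at 5.27 and 6.08, a ratio of 0.81, and EXPB8 at 5.69 and 6.33, a ratio of 0.64. EXPB11, also described in elongating internodes, stood at 6.06 and 6.25, a ratio of 0.19. EXPB10, EXPB17 and EXPB18 were under the floor on both arrays.

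The alpha expansins with the strongest signals did not differ by 2-fold. EXPA2, a further gene of deepwater rice, stood at 9.32 and 10.12 and was 1.74-fold higher in the transgenic leaves. EXPA10, which is induced by aluminium in rice roots, stood at 8.49 and 8.23, a ratio of -0.27. EXPA16 stood at 6.18 and 6.70, a ratio of 0.52, and EXPA1 at 5.79 and 5.30, a ratio of -0.50.

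All 3 alpha expansins at 2-fold were lower bounds close to the threshold. EXPA3 stood at 3.92, under the floor, and at 5.73, which makes it at least 2.48-fold higher. EXPA5 stood at 2.64, under the floor, and at 5.50, at least 2.12-fold higher. EXPA6 stood at 5.70 and at 4.15, under the floor, at least 2.12-fold lower. The brighter side of each of these 3 lay between the 52.6 and the 56.5 percentile of its array, just above the median. Without a floor the ratios of EXPA3, EXPA5 and EXPA6 were 1.80, 2.86 and -1.54. With the floor raised to the median their ratios were 0.57, 0.34 and -0.38, all under 2-fold. EXPA5 was also under 2-fold after quantile normalization (0.92) and lowess centring (0.79), and EXPA3 and EXPA6 with a pseudocount of 32 on the linear signal (0.85 and -0.75).

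EXPA7 was read by 3 probe sets that disagreed. The one with the strongest signal stood at 5.63 and 4.96, a ratio of -0.68, the next at 4.62 and 5.64, a ratio of 1.02, and the last was under the floor on both arrays. No direction can be given for this gene. EXPA4, the alpha expansin most closely tied to internode elongation in deepwater rice, stood at 2.19 and 4.19, under both floors. The same held for EXPA8, EXPA26, EXPA29, EXPA31 and EXPA32, whose signals did not exceed 2.87 on either array.

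The EXLA genes held 1 strong signal and 0 differences of 2-fold. EXLA1 stood at 12.54 and 12.11, the 97.0 and 95.7 percentiles, and was 1.35-fold lower in the transgenic leaves. EXLA4 stood at 6.49 and 7.40 and was 1.88-fold higher. EXLA3 stood at 6.01 and 6.39, a ratio of 0.38. EXLA2 had 2 probe sets. On the one counted for the gene, of a kind that may also read similar genes, it stood at 7.84 and 7.21, a ratio of -0.63. On the other it stood at 7.45 and 7.50, a ratio of 0.05.

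Set side by side, the alpha and beta families had the same counts with the floor as used. Each had 8 genes measured, 3 of them at 2-fold or more (37.5%). These lay in the dimmest group of genes, where the share of all genes was 28.8%. Each family had 4 ratios above and 4 below 0, with EXPA7 counted by its strongest probe set. As the mean over its probe sets EXPA7 had 0.17, which would give the alpha family a median ratio of 0.34. The alpha family had 2 genes higher and 1 lower, and the beta family 1 higher and 2 lower. The equal counts depend on the floor. With the floor at the median, only the beta genes EXPB6, EXPB2 and EXPB7 were at 2-fold. With a pseudocount of 32 in place of the floor, EXPA5 was the only alpha gene beside them. The median ratio was 0.13 for alpha and 0.03 for beta expansins, beside -0.01 over all genes that passed. With the floor, beta ratios ran from -2.60 to 1.68 and alpha ratios from -1.08 to 1.31, but 3 of the 8 alpha ratios and 1 of the 8 beta ratios were lower bounds. Genes are not replicates, and the difference between the families was not tested.

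**Figure D3:**
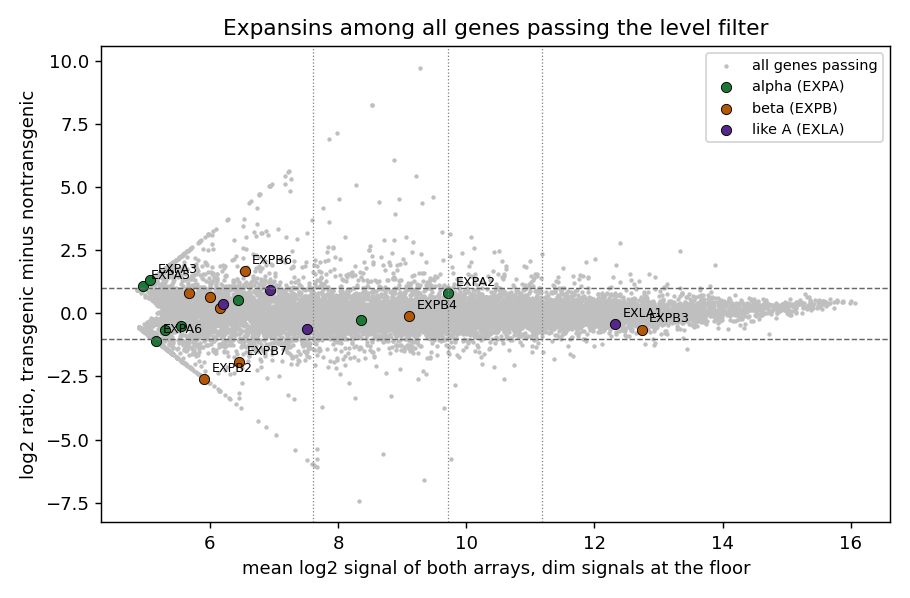
Log2 ratio (y axis) against mean log2 signal of both arrays (x axis) for all 15192 genes that passed (grey) and for the expansins (coloured by family); dotted lines bound 4 equal groups of genes by signal, dashed lines mark 2-fold. The 6 expansins beyond 2-fold lie left of the first dotted line, and EXPB3 and EXLA1 lie at the bright end within 2-fold.

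Probe sets that read the same gene gave a measure of the scatter within the arrays, without the spread between plants or hybridisations. It was estimated as the SD of the difference in ratio between the 2 strongest probe sets of a gene, divided by the square root of 2. The probe sets had the same sign of ratio in 60.4% of such genes in the dimmest group and in 61.4% in the brightest. In the dimmest group the scatter of a single ratio was 0.84 over 331 genes, and in the brightest 0.41 over 816 genes. This is no yardstick for a difference between single arrays, since that also holds the spread between plants and hybridisations. The 6 expansins at 2-fold, and EXPA2 and EXPB3, had 1 probe set each, so that their directions have no second reading within the arrays.

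Of the 4 pairs of neighbouring beta expansins that were measured, EXPB6 with EXPB2 and EXPB8 with EXPB7 had opposite ratios. The other pairs had ratios of the same sign. In the reference, EXPB6, EXPB2, EXPB3 and EXPB4 follow one another with 0 protein-coding genes between them, and EXPB8 and EXPB7 are likewise adjacent. Along the first run the ratios were 1.68, -2.60 or lower, -0.64 and -0.12. Along the second they were 0.64 and -1.93. Of the 14 pairs of expansins with at most 1 protein-coding gene between them, these 4 pairs had both genes measured.

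**Figure D4:**
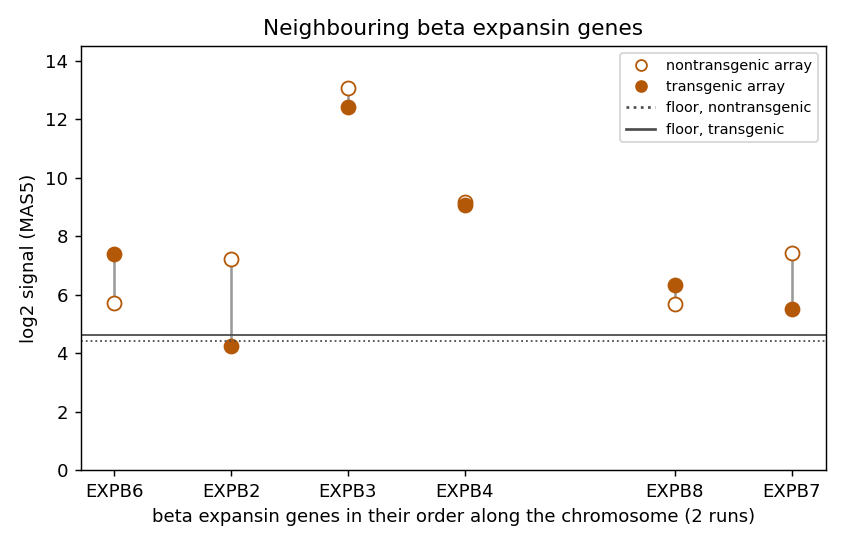
Log2 signal (y axis) of neighbouring beta expansin genes in their order along the chromosome (x axis), on the nontransgenic (open) and transgenic (filled) arrays, with floors as horizontal lines and 1 array per group. EXPB6 is higher and EXPB2 lower on the transgenic array, and in the second run EXPB8 is higher and EXPB7 lower.

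The ratios rest on the authors' scaling of the arrays to a common mean. The 27 probe sets for the bacterial and phage controls added at hybridisation were brighter on the transgenic array by a median of 0.90. Centred on them, the median ratio of all genes was -0.92. Of the 20 expansins, 0 were then at least 2-fold higher and 10 lower, against 3 and 3 as deposited. Among all genes that passed, 1.31% were higher and 41.2% lower in this setting. The expansins with a ratio above 0 then numbered 4 instead of 10, namely EXPB6, EXPA3, EXPA5 and EXLA4. Directions above are relative to the bulk of genes. The ratios of EXPB2 and EXPB7 were negative and those of EXPB6, EXPA3 and EXPA5 positive in each setting in which they were computed. The ratio of EXPA6 was also negative in each, from -1.99 to -0.38.

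**Figure D5:**
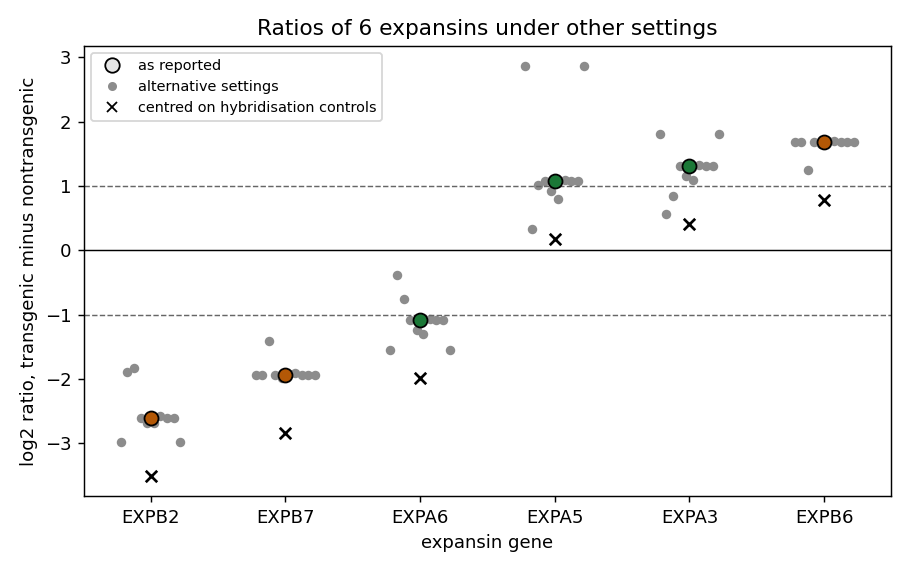
Log2 ratio (y axis) of the 6 expansins at 2-fold or more (x axis) as reported (large circles), under the other alternatives (grey points) and centred on the hybridisation controls (crosses). EXPB2 and EXPB7 stay below -1 throughout, while EXPA6, EXPA5 and EXPA3 have points within 2-fold and EXPB6 is within 2-fold when centred on the hybridisation controls (0.78).

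Of the other wall genes searched for, those with a probe set were mostly endoglucanases. The 16 genes were 13 endoglucanases of glycoside hydrolase family 9 (GLU and Cel9), 2 pectin methylesterase inhibitors and 1 xyloglucan endotransglucosylase, with 0 pectin methylesterases and 0 polygalacturonases. Of these, 8 passed, 0 were at least 2-fold higher and 1 was at least 2-fold lower, where 4.44% of all genes were lower. The median ratio of the 8 was -0.30 against -0.01 for all genes, and the summed linear signal of the 16 was 4451 in nontransgenic and 3201 in transgenic leaves. The lower gene was XTH8, a gibberellin-responsive xyloglucan endotransglucosylase gene, which stood at 9.75 and 8.65 and was 2.14-fold lower. GLU1, the endoglucanase gene that acts on internode length, stood at 9.88 and 9.67. GLU2 had the strongest signal of the 16 and so weighs most in their sum. It stood at 10.78 and 10.14 and was 1.56-fold lower. Cel9E, at 6.13 and 5.22, was 1.88-fold lower, and GLU6 and GLU12 were 1.85-fold and 1.79-fold higher.

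Markers of other tissues and of dividing cells were examined beside these values, since many expansins are known from growing or reproductive tissue. Of 17 genes of dividing cells, 6 passed, 1 was 2-fold higher and 0 were 2-fold lower, and their summed linear signal was 2799 in nontransgenic and 1915 in transgenic leaves. Their median ratio was 0.004. In that list PCNA, the replication clamp gene, stood at 10.14 and 9.14, a ratio of -0.99. MCM9 stood at 9.41 and 8.63, a ratio of -0.78. The sum weighs such bright genes most. CYCA2-1, a cyclin gene, stood at 5.87 and 6.82, a ratio of 0.96, and 11 genes including CDKB2-1 did not pass. Of 7 inflorescence genes, 2 passed, MADS1 at least 5.84-fold higher and MADS16 2.49-fold lower, with summed signals of 1911 and 921, most of it from MADS16 at 10.84 and 9.52. All 3 root genes passed and 0 reached 2-fold (summed signals 228 and 310). Of 4 anther genes 3 passed and 1, EAT1 at 4.69 and 5.75, was higher (summed signals 698 and 774). MCM3, MADS1 and EAT1 stood below 7.60 on both arrays, the upper limit of mean signal in the dimmest group. In that group 28.8% of all genes differed by 2-fold or more. The 7 leaf genes had 6 that passed, all but RBCS1, and 0 at 2-fold (250892 and 335748). The part of any difference in tissue make-up in the expansin ratios was not tested.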

How the data were processed

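The deposited values are log2 signals of 1-colour arrays, and per the submitters' processing notes the authors used MAS5. The sources used here state no version, no scaling target and no detection calls. The log2 scale follows from the values, since the unlogged means, trimmed by 2% at each end, were 500.1 on both arrays. Control probe sets (187 of 57381) were set apart, and 0 per-sample columns were left unmapped. Gene names came from the annotation of the platform and from a rice reference (assembly ASM3414082v1), which served for names and gene order alone. That annotation gave 1 gene for 22436 probe sets, several for 95 and none for 34663, and all 17905 genes were found in the reference. For a gene with several probe sets, the one with the strongest mean signal, dim values at the floor, was used. NumPy 2.4.6, SciPy 1.17.1, pandas 2.3.3 and statsmodels 0.14.6 were used, and the counting was tested on simulated data. No test between groups exists with 1 array a group. The precision of every value is limited by that number. Full values were given for expansins with a 2-fold ratio and for the 5 with the highest signal in the alpha and beta families, and both signals for the other measured members. From the wall list, genes with a 2-fold ratio were named. GLU1, GLU2, Cel9E, GLU6, GLU12, PCNA, MCM9, CYCA2-1, MCM3, MADS1, MADS16, EAT1, rca, RBCS1 and CDKB2-1 were chosen after their values were seen. The members and lists were chosen with earlier results of these data known. Alternatives covered the floor, the level filter, the scaling, the choice of probe set and the fold threshold. No sequences were used here.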

Additional observations from a re-analysis of the deposited data

How the results depend on the processing

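No paired analysis was possible because each group has 1 array. The count of expansins at least 2-fold higher was 3 as reported, 1 with the floor at the median and 1 at a 3-fold threshold. It was 0 with the filter at the 75th percentile, which left 5 expansins and 0 lower ones. The shares of all genes that were higher in these settings were, in the same order, 6.07%, 4.06%, 2.11% and 2.81%. Without filter and floor, 7 of 29 expansins were higher and 4 lower, where 10% of all genes were higher and 8.52% lower. The alpha median was then 0.73 and the beta median 0.19. These took in 6 alpha and 3 beta genes that were under the floor on both arrays. Centred on the hybridisation controls, 0 expansins were higher and 10 lower, where 1.31% of all genes were higher and 41.2% lower. The alpha and beta medians were then -0.78 and -0.87. Without probe sets marked for several transcripts these medians were 0.52 and 0.42, over 7 alpha and 6 beta genes, since EXPA10, EXPB3 and EXPB4 were left out. The beta median with the 75th-percentile filter was -0.38. The centring on hybridisation controls and the setting with neither filter nor floor were chosen after seeing the data. With the pseudocount of 32, 2 expansins were higher and 2 lower, and with quantile normalization or lowess centring 2 were higher and 3 lower. Of all genes, 4.27% were higher and 3.08% lower with the pseudocount. These shares were 5.52% and 4.82% with quantile normalization, and 5.28% and 4.96% with lowess centring. EXPB2 and EXPB7 stayed at 2-fold in 11 of 11 alternatives that measured them, and EXPB6 in 10. EXPA6 did so in 9, EXPA3 in 8 and EXPA5 in 7 of 11. The 75th-percentile filter left all of these genes out and is not in the tally. Many alternatives could not move a gene with 1 probe set above the floor. EXPB6 and EXPB7 kept 1.68 and -1.93 under every change of floor, level filter or probe set choice that measured them. These counts are therefore no measure of robustness. EXPA5 ranged from 0.18 to 2.86 and EXPB2 from -3.50 to -1.83. Averaged over probe sets, EXPA7 had a ratio of 0.17, against -0.68. Dim signal limits most members, and the causes of these shifts were not tested.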

Other observations

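The 9 expansins under the floor on both arrays, EXPA4, EXPA8, EXPA26, EXPA29, EXPA31, EXPA32, EXPB10, EXPB17 and EXPB18, were read as deposited for a description. Of these, 8 had a higher signal on the transgenic array, with EXPB10, at 4.33 and 2.20, as the exception. Their median difference was 0.95, against 0.11 over the 1620 genes of this kind, of which 54.0% were higher on the transgenic array. The difference of a gene under the floor spanned -2.68 to 2.96 between the 5th and the 95th percentile, so that each of the 9 values, from -2.13 to 2.01, lay inside that range. EXPB17 had a further probe set, at 2.17 and 1.37, that went the other way from its stronger one, at 1.74 and 3.30.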
